A study of Mus musculus with 24 samples.

Results

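The serpins (serine protease inhibitors) are a gene family whose members were followed here in mouse liver and lung. All genes whose symbol in the array platform's probe table starts with Serpin were taken, which gave 56 of the 19053 genes with a probe of 1 symbol. They were split by the letter of their clade into 21 clade a genes, 26 clade b genes and 9 genes of the other clades (c to i). A member was tested in a tissue when 1 of its probes was detected (detection p under 0.05) on at least 3 of that tissue's 12 arrays. This left 24 members in liver (15 of clade a, 3 of clade b and 6 of the rest) and 29 in lung (14, 9 and 6). Of the 56, 20 were tested in both tissues, 4 in liver alone, 9 in lung alone and 23 in neither, and 17 of those 23 belong to clade b.

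The animals were female BALB/c mice, aged 22 weeks, that were fed 1 of 2 diets, control or high-fat, over 16 weeks and were then either sham-injected or given 4T1 cells in the mammary fat pads. 4T1 is a transplantable mouse mammary carcinoma line from the BALB/c strain, so the tumour graft was syngeneic. Both organs were collected 14 days after injection, with each diet continued to the end, so every mouse of the study carried 16 weeks of 1 of the 2 diets before its injection. Each of the 8 groups (2 tissues, 2 injections, 2 diets) holds 3 bead arrays, and the labels give neither the composition of the diets nor whether a liver and a lung array share a mouse.

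A serpin inhibits by baiting: a protease cuts the exposed reactive centre loop, the serpin snaps into a more stable fold, and the protease is left bound to it. Clade a serpins are mostly secreted, and the liver is the main source of those in plasma, among them alpha-1-antitrypsin (the Serpina1 paralogs), which protects lung tissue from neutrophil elastase. Clade b serpins lack a classical signal peptide and act mostly inside cells, often in leukocytes and epithelia. Some members inhibit nothing and instead carry hormones or chaperone collagen.

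Arrays of the same tissue differed by group in how much they detected. In liver 34.0 to 36.1% of probes were detected on the sham arrays and 40.4 to 41.5% after 4T1, whereas in lung the shares were 51.0 to 52.4% and 43 to 44.8%. Defining markers were present in each labelled tissue: all 12 hepatocyte markers were tested in liver, and 9 of 10 lung epithelial markers were detected on every lung array. The means of the neutrophil markers (10 of 10 tested in both tissues) were 7.81 to 8.04 on the sham and 12.74 to 13.10 on the 4T1 liver arrays, and 9.82 to 10.20 and 15.02 to 15.13 in lung. In whole tissue, fewer cells of a type and less RNA per cell cannot be told apart. The labels do not say that arrays of a group come from separate mice, so p-values measure the spread between arrays, which may be technical.

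Among the members with liver results are the alpha-1-antitrypsin paralogs on chromosome 12 and the thyroxine carrier Serpina7 on the X chromosome. Their promoters are shown because Serpina1c and Serpina1e, nearly identical before their starts, changed in opposite directions in liver on the deposited scale, with limits given below. RefSeq promoter windows (GRCm38.p6) were found for 49 of the 56 members, and each line below gives the 250 bases before the annotated start, 5′ to 3′ on the gene's own strand, which is the minus strand for all 6. Capitals mark GTTAAT (part of the HNF1 site) and TTNNGNAA (a C/EBP site), searched on both strands. In the printed windows these matches do not overlap. The windows are those of the reference build, and whether the BALB/c mice carry the same bases was not tested.
Serpina1a: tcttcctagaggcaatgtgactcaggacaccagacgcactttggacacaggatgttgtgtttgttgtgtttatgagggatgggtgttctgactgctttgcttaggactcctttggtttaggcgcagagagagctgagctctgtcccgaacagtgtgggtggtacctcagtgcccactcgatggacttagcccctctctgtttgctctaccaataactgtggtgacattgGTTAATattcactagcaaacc
Serpina1b: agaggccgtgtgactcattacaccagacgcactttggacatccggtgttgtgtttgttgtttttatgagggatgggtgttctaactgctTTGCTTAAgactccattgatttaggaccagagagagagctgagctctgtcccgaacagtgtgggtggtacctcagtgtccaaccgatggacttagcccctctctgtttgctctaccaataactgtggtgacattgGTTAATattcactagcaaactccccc
Serpina1c: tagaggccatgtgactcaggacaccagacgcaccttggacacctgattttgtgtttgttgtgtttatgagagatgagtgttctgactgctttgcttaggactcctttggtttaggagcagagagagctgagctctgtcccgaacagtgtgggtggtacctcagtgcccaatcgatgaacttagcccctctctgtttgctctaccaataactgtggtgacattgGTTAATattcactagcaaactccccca
Serpina1d: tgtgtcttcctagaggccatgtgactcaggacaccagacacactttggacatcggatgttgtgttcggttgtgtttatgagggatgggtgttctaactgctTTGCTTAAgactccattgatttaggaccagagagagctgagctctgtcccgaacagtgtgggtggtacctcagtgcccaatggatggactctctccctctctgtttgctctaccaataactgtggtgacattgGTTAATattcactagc
Serpina1e: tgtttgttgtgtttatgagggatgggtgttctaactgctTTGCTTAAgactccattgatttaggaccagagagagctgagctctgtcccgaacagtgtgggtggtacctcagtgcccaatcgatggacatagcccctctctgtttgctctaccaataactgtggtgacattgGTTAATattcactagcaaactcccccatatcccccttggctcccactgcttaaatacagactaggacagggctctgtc
Serpina7: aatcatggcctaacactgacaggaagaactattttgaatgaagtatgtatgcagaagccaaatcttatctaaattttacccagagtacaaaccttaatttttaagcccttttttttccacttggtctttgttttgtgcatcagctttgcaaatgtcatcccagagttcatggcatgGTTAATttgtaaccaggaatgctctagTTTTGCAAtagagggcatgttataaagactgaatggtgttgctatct
The windows lie at chr12:103863620-103863869, chr12:103738190-103738439, chr12:103904951-103905200, chr12:103773634-103773883, chr12:103956898-103957147 and chrX:139085220-139085469, in that order. Where they overlapped when aligned (190 to 250 columns), any pair of the 5 Serpina1 windows was 91.6 to 97.0% identical. All 5 hold GTTAAT, which begins 16 to 27 bases before the start of Serpina1a, Serpina1b, Serpina1c and Serpina1d and 78 bases before that of Serpina1e. Serpina1b, Serpina1d and Serpina1e also hold the 8 bases TTGCTTAA, a match to the C/EBP letters that the windows of Serpina1a and Serpina1c lack. Serpina7 has both motifs, with GTTAAT beginning 74 and TTTTGCAA 47 bases before its start.

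Over all windows of members, GTTAAT was present in 10 of 58 (17.2%) against 6.43% of all 32851 windows in the table, and in 7 of 20 clade a windows. Those 7 are the 5 near-identical Serpina1 windows and 2 overlapping windows of Serpina7. These shares count windows, so copied or overlapping bases enter more than once, and no excess over all promoters can be read from them. The C/EBP letters were in 37 of 58 (63.8%) against 36.8% of all windows. TTCNNNGAA, the letters of a STAT site, was in 9 of 58 (15.5%) against 7.02%. The 9 include overlapping windows of Serpina11 and of Serpina3f but none of the 5 Serpina1 windows shown. A match is a description of letters and shows no binding.

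In liver, serpins were more often higher than lower after 4T1 injection. On the control diet 15 of 24 tested members were higher and 4 lower in 4T1 mice, that is 62.5% and 16.7%, where 21.0% of all 10904 genes were higher and 24.0% lower (limma, Benjamini-Hochberg adjusted p under 0.05). On the high-fat diet 11 members were higher and 4 lower, against 21.7% and 28.6% of all genes. The median log2 change of the members was 0.24 and 0.16 on the 2 diets and that of all genes -0.01 and -0.03. Beside them, the hepatocyte markers had means of 13.74 to 13.83 on sham and 13.88 to 13.96 on 4T1 liver arrays, and their part in the changes was not tested. The injection comparisons on the 2 diets share no array, and 11 members were higher and 4 lower on both, with none called in opposite directions. The share of all genes called alike on both diets was not counted, so this count cannot be set against it. By clade, 9 of 15 clade a members were higher and 2 lower on the control diet, 2 and 0 of 3 in clade b, and 4 and 2 of 6 in the rest.

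These directions are relative to a quantile normalization, which gives every array the same distribution of values. When arrays were instead scaled to a common median, all liver genes shifted upward by medians of 0.59 (control diet) and 0.65 (high-fat diet). The share of higher among all calls went from 46.7 to 98.8% and from 43.2 to 99.3%. No serpin was then called lower in the livers of 4T1 mice.

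**Figure D1:**
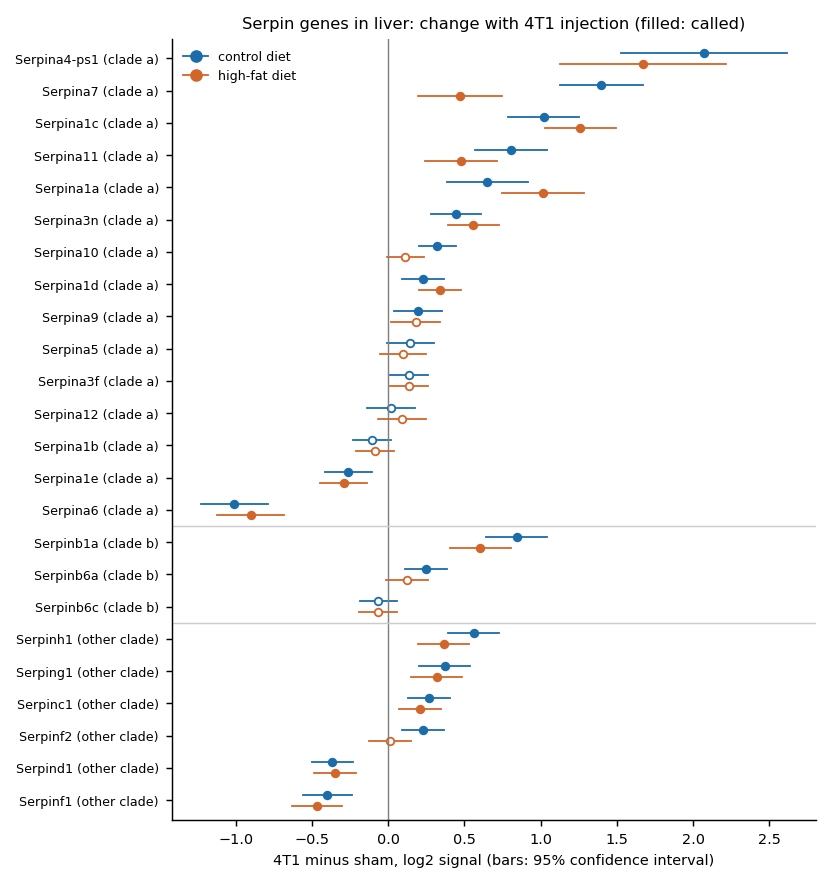
Change in log2 signal with 4T1 injection in liver for the 24 tested serpins, grouped by clade; points are fitted differences on each diet (3 against 3 arrays), bars 95% confidence intervals, and filled points passed an adjusted p of 0.05. Serpina4-ps1 lies farthest right and Serpina6 farthest left on both diets.

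The alpha-1-antitrypsin paralogs moved by different amounts. Alpha-1-antitrypsin is the main plasma inhibitor of neutrophil elastase, and whether the product of each paralog has that activity was not tested. Serpina1c read 12.76, 12.47 and 12.52 on control-diet sham arrays against 13.57, 13.66 and 13.58 after 4T1. Its high-fat values were 12.43, 12.66 and 12.87 against 13.69, 14.06 and 13.99. All 6 4T1 arrays lay above all 6 sham arrays, a rise of 1.02 ± 0.11 (SE) on the control diet (2.03-fold, adjusted p = 2.41e-06) and 1.26 ± 0.11 on the high-fat diet (2.40-fold, adjusted p = 2.19e-07). Serpina1a read 12.28, 12.07 and 11.68 against 12.75, 12.65 and 12.59 on the control diet, and 12.02, 11.84 and 11.91 against 12.79, 13.20 and 12.84 on the high-fat diet. Its groups did not overlap, and it rose by 0.65 ± 0.13 and 1.02 ± 0.13 (adjusted p = 5.77e-04 and 8.00e-06), with a second probe at 0.78 and 1.09.

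Serpina1d rose less, by 0.23 ± 0.06 and 0.34 ± 0.06 (adjusted p = 0.00863 and 3.80e-04). Its level, 15.42 to 15.60 on sham arrays against 15.69 to 15.87 after 4T1, is near the top of the scale. Serpina1b, at 16.07 on all 6 sham arrays and 15.87 to 16.03 on 4T1 arrays, sits at the top itself, and its change of -0.11 and -0.09 did not pass the test. Its other probes read 0.21 and 0.19 in one case and -0.01 and 0.02 in the other. Serpina1e went the other way. It read 8.64, 8.81 and 8.78 against 8.51, 8.49 and 8.43 on the control diet and 8.90, 8.78 and 8.66 against 8.50, 8.57 and 8.40 on the high-fat diet, so no 4T1 array reached a sham array. Serpina1e fell by 0.26 and 0.29 on the log2 scale (adjusted p = 0.00792 and 0.00346), and under median scaling the values were 0.44 and 0.51, which relative to the shift of all genes are -0.16 and -0.14. Serpina1b sits at the top of the scale and Serpina1d near it, which can limit a rise, so their liver changes were not ranked against those of the other paralogs. Whether each probe reads only its own paralog was not tested.

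Other secreted inhibitors of clade a rose as well. Serpina3n, an inhibitor of cathepsin G related to alpha-1-antichymotrypsin, was at 14.31 to 14.69 on sham arrays against 14.84 to 15.06 after 4T1 and rose by 0.45 ± 0.08 and 0.56 ± 0.08 (adjusted p = 2.39e-04 and 2.44e-05). Serpina11 rose by 0.81 ± 0.11 and 0.48 ± 0.11 (adjusted p = 2.79e-05 and 0.00201). Serpina10, which inhibits factor Xa with protein Z as cofactor, rose by 0.32 ± 0.06 on the control diet (adjusted p = 2.80e-04) and changed by 0.11 on the high-fat diet, where it did not pass. The largest rise of the family belonged to Serpina4-ps1, a pseudogene by its symbol.

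Serpina4-ps1 read 8.11, 8.08 and 8.40 on sham and 10.30, 10.12 and 10.38 after 4T1 injection on the control diet, a rise of 2.07 ± 0.26 (4.2-fold, adjusted p = 9.38e-06). Its high-fat values were 7.84, 7.54 and 7.82 against 10.36, 8.93 and 8.92, a rise of 1.67 ± 0.26 (adjusted p = 6.16e-05). The 4T1 arrays of the high-fat diet were uneven, with replicate 1 at the level of the control-diet arrays and the other 2 well below it. It was detected on 11 of 12 liver arrays, and with a background correction (limma's neqc) its change on the high-fat diet was 3.06.

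The 2 hormone carriers of the family moved in opposite directions. Serpina6 (corticosteroid-binding globulin, which carries glucocorticoids in plasma) read 13.98, 14.38 and 14.43 on sham and 13.19, 13.30 and 13.27 after 4T1 injection on the control diet. Its high-fat values were 13.96, 13.95 and 13.94 against 12.87, 13.06 and 13.22. Every 4T1 array was below every sham array, and Serpina6 fell by 1.01 and 0.90 on the log2 scale (SE 0.10 for both; 2.01-fold and 1.87-fold; adjusted p = 1.23e-06 and 3.69e-06). Under median scaling its change was -0.12 (adjusted p = 0.146) and 0.15 (adjusted p = 0.064), so the direction turned on the high-fat diet. Relative to the shift of all genes it was -0.71 and -0.49.

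Serpina7 (thyroxine-binding globulin, a plasma carrier of thyroid hormone) read 10.68, 10.83 and 10.21 on sham and 11.91, 12.00 and 11.99 after 4T1 injection on the control diet. With high-fat feeding it read 10.66, 10.49 and 10.70 against 11.12, 10.86 and 11.28. Both pairs of groups were apart, by 1.40 ± 0.13 (2.64-fold, adjusted p = 3.65e-07) and by 0.47 ± 0.13 (1.39-fold, adjusted p = 0.00615). The difference between the 2 rises is itself called and is given with the diet results.

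Among the serpins that restrain clotting and fibrinolysis the changes were small. Serpinc1 (antithrombin) rose by 0.27 ± 0.06 and 0.21 ± 0.06 (adjusted p = 0.00312 and 0.0131), but its second probe read -0.14 and -0.02, the mean of its probes was not called on either diet, and without 4T1 high-fat replicate 2 or sham high-fat replicate 1 the high-fat call was lost (adjusted p = 0.0506 and 0.0558). Serpind1 (heparin cofactor II, a thrombin inhibitor) read 13.26, 13.30 and 13.29 against 12.88, 12.90 and 12.98 on the control diet and 13.59, 13.38 and 13.40 against 13.10, 13.11 and 13.12 on the high-fat diet. The groups did not overlap, and Serpind1 fell by 0.36 and 0.35 on the log2 scale (adjusted p = 2.73e-04 and 3.17e-04), while under median scaling the values were 0.56 and 0.68, or -0.03 and 0.04 relative to the shift of all genes. Serpinf2 (alpha-2-antiplasmin, the inhibitor of plasmin) rose by 0.23 ± 0.07 on the control diet (adjusted p = 0.00959) and changed by 0.01 on the high-fat diet.

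Serping1 (C1 inhibitor, which blocks the first complement proteases and plasma kallikrein) rose by 0.37 ± 0.08 and 0.32 ± 0.08 (adjusted p = 0.00115 and 0.00307), with a second probe at 0.57 and 0.78. Serpinh1 (HSP47, a collagen chaperone of the endoplasmic reticulum) rose by 0.56 ± 0.08 and 0.37 ± 0.08 (adjusted p = 3.33e-05 and 0.00113). Beside it, the fibroblast markers had means of 9.18 to 9.26 on sham and 9.50 to 9.58 on 4T1 liver arrays, and their part in the change was not tested. Serpinf1 (PEDF, a secreted serpin that does not inhibit proteases) read 15.39, 15.50 and 15.55 against 14.99, 15.08 and 15.17, and 15.48, 15.56 and 15.37 against 15.13, 15.00 and 14.90. Its groups did not overlap on either diet. Serpinf1 fell by 0.40 and 0.47 on the log2 scale (adjusted p = 5.15e-04 and 1.09e-04), with median scaling giving 0.44 and 0.53 (-0.16 and -0.11 relative to the shift of all genes) and with a dim second probe at -0.01 and 0.04.

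Of the intracellular clade b serpins, Serpinb1a, the mouse counterpart of the leukocyte elastase inhibitor, read 7.63, 7.80 and 7.76 on sham and 8.63, 8.47 and 8.61 after 4T1 injection on the control diet. Its high-fat arrays gave 8.15, 8.07 and 7.88 against 8.86, 8.47 and 8.59. No sham array reached a 4T1 array of its diet, and the rise was 0.84 ± 0.09 and 0.61 ± 0.09 (adjusted p = 3.22e-06 and 6.96e-05), or 1.90 and 1.16 with neqc. The neutrophil markers given above moved with it, and their part in the rise was not tested. Serpinb6a, which inhibits cathepsin G, rose by 0.25 ± 0.07 on the control diet (adjusted p = 0.00575) and changed by 0.12 on the high-fat diet.

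5 tested liver members passed on neither diet: Serpina12 (vaspin), Serpina1b, Serpina3f, Serpina5 (protein C inhibitor) and Serpinb6c, with changes between -0.11 and 0.15. Serpina3f, Serpina5 and Serpina9 were detected on no sham array. These 3 entered only through the 4T1 groups where they are high. Of the 3, Serpina9 is counted among the 15 higher on the control diet (0.19, adjusted p = 0.0439), with overlapping groups, and lost its call under 7 of the 12 omissions of 1 array, for example without sham control replicate 1 (adjusted p = 0.118).

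**Figure D2:**
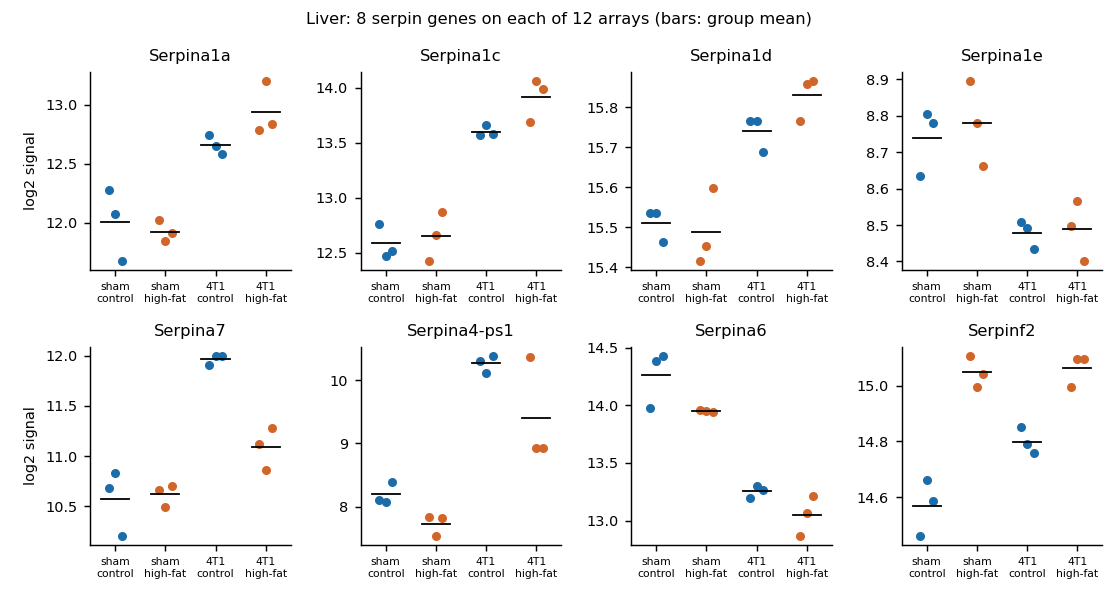
Log2 signal of 8 serpins on each of the 12 liver arrays by group (sham or 4T1, control or high-fat diet; dots are arrays, bars group means, and each panel has its own axis). Serpina7 is high on the 3 control-diet 4T1 arrays (11.91 to 12.00), and Serpinf2 is low on the 3 control-diet sham arrays (14.46 to 14.66).

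In sham livers 3 of 24 members were called between the diets, all higher on the high-fat diet, and that share (12.5%) is near the 14.3% of all genes. Serpinf2, which protects fibrin clots from plasmin, read 14.46, 14.66 and 14.59 with control and 15.11, 15.00 and 15.04 with high-fat feeding. It rose by 0.48 ± 0.07 (1.39-fold, adjusted p = 1.05e-04) with no overlap, and its other probes gave 0.61 and 0.54, but under median scaling the rise was 0.23 (adjusted p = 0.0427). Serpina10 read 14.11, 14.20 and 14.26 against 14.47, 14.42 and 14.42 and rose by 0.25 ± 0.06 (adjusted p = 0.00809), a call lost under median scaling (0.02). Serpinb1a read 7.63, 7.80 and 7.76 against 8.15, 8.07 and 7.88, a rise of 0.31 ± 0.09 (adjusted p = 0.0393). That call was lost when any of 8 arrays was left out, with adjusted p up to 0.146 without sham high-fat replicate 1.

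In 4T1 livers 1 of 24 members differed between the diets (4.17%, against 1.56% of all genes). Serpina7 was at 11.91, 12.00 and 11.99 on the control and at 11.12, 10.86 and 11.28 on the high-fat diet, a difference of -0.88 on the log2 scale (SE 0.13, 1.84-fold, adjusted p = 0.00186). The groups were well apart, while in sham mice the difference was 0.05. With neqc the difference was -0.93 and the adjusted p 0.0517. The diet by injection interaction called the same gene and no other member (4.17%, against 2.04% of all genes), at -0.93 ± 0.18 (95% interval -1.31 to -0.54, adjusted p = 0.0129). A second Serpina7 probe read -0.42. The call was lost with neqc (-0.98, adjusted p = 0.0992) and under median scaling (-0.84, adjusted p = 0.129), while the difference itself kept about its size.

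The members next in p for these comparisons did not pass. Serpina6 in sham livers read 13.98, 14.38 and 14.43 on the control and 13.94 to 13.96 on the high-fat diet, without overlap (-0.31, adjusted p = 0.0541), and it was called without sham control replicate 1 (-0.46, adjusted p = 0.00215). Serpinf2 in 4T1 livers read 14.85, 14.79 and 14.76 with control and 15.00, 15.09 and 15.09 with high-fat feeding, without overlap (0.26, adjusted p = 0.0598). Serpina4-ps1, whose uneven values are given above, differed by -0.86 in 4T1 livers (adjusted p = 0.131). Without 4T1 high-fat replicate 1 that difference was -1.34 (adjusted p = 1.28e-05) and its interaction -0.88 (adjusted p = 0.00526). The interactions of Serpina10 and Serpinf2 were -0.21 and -0.22 (adjusted p = 0.226 and 0.281). The sham and 4T1 comparisons of diet share arrays with the injection comparisons above, so they are not independent of them.

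In lung, serpins were more often lower than higher after 4T1 injection. On the control diet 3 of 29 members were higher (10.3%, against 20.9% of all 12746 genes) and 11 lower (37.9%, against 32.8%). On the high-fat diet 3 were higher (10.3%, against 23.0%) and 13 lower (44.8%, against 32.3%). The median change of the members was -0.12 and -0.29 and that of all genes -0.06 and -0.05. On the control diet the share called lower was near that of all genes. Across the diets 3 members were higher on both and 11 lower on both, with none in opposite directions, and here too the share of all genes called alike was not counted. By clade, 6 of 14 clade a members, 2 of 9 clade b members and 3 of 6 others were lower on the control diet. Median scaling moved all lung genes by -0.26 and -0.24, took the share of higher among all calls from 39 to 15.2% and from 41.6 to 16.8%, and turned no serpin called in lung.

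**Figure D3:**
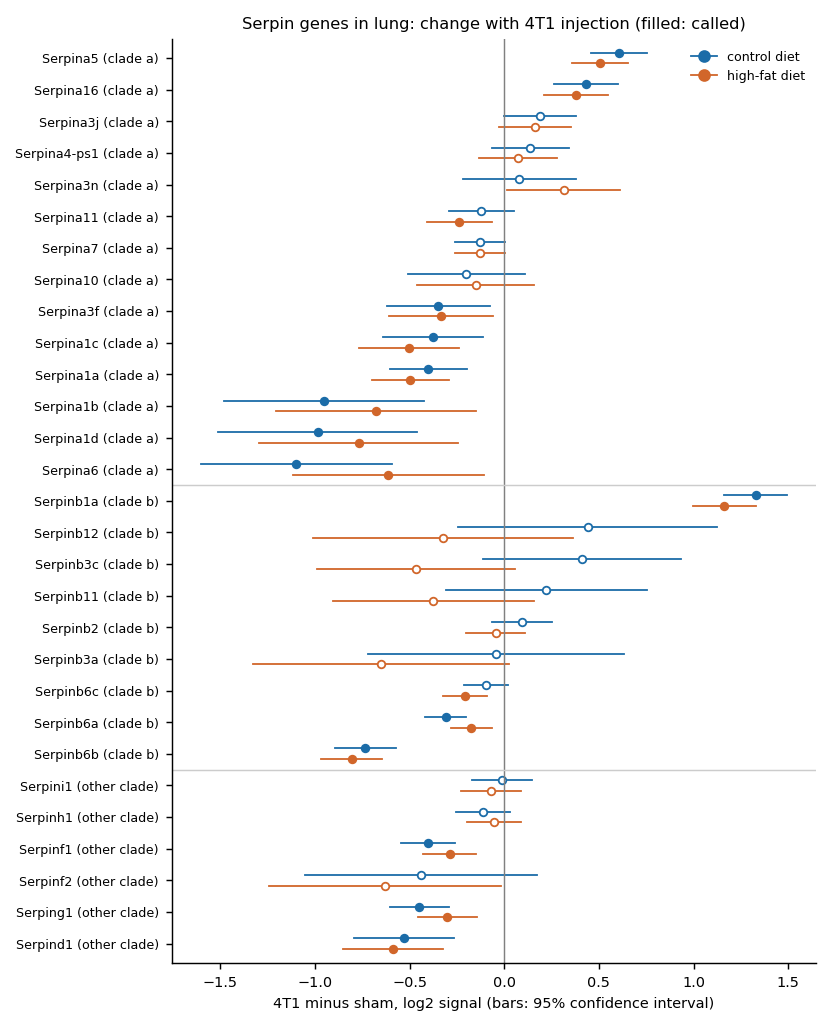
Change in log2 signal with 4T1 injection in lung for the 29 tested serpins, grouped by clade; points are fitted differences on each diet (3 against 3 arrays), bars 95% confidence intervals, and filled points passed an adjusted p of 0.05. Serpinb1a lies farthest right on both diets, and the widest intervals belong to Serpinb12 and Serpinb3a.

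Serpinb1a, which inhibits the neutrophil proteases elastase, proteinase 3 and cathepsin G, had the largest rise of the family in lung. It read 9.07, 9.12 and 9.03 on sham and 10.51, 10.19 and 10.50 after 4T1 injection on the control diet, and 9.30, 9.25 and 9.22 against 10.52, 10.34 and 10.40 on the high-fat diet. The groups lay apart on both diets, by 1.33 ± 0.08 (2.51-fold, adjusted p = 5.48e-09) and 1.16 ± 0.08 (2.24-fold, adjusted p = 2.37e-08). The means of the neutrophil markers moved with it, as given above, and their part in the rise was not tested.

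Serpina5 and Serpina16, the other 2 members called higher, were below detection on all sham lung arrays. They passed the filter only through the 4T1 groups where they are high, so their calls are no support for a direction of the family. Serpina5, the protein C inhibitor, was detected on none of the 6 sham and all 6 4T1 lung arrays. It read 7.40, 7.38 and 7.34 against 7.96, 7.91 and 8.07 on the control and 7.32, 7.38 and 7.49 against 7.99, 7.76 and 7.96 on the high-fat diet. No sham array reached a 4T1 array, and since its sham level is only a bound (at most the lowest signal of a detected probe, or its own value where higher), Serpina5 was higher at least 1.39-fold on the control diet (adjusted p = 7.19e-06) and at least 1.31-fold with high-fat feeding (adjusted p = 3.23e-05). Serpina16 read 7.17, 7.19 and 7.31 against 7.68, 7.72 and 7.56, and 7.17, 7.24 and 7.35 against 7.52, 7.81 and 7.56. Its groups were apart too, but it was detected on only 3 of 12 arrays, all from 4T1 mice, and was at least 1.11-fold and 1.08-fold higher (adjusted p = 3.93e-04 and 9.98e-04).

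Serpina1b, Serpina1d and Serpina6, known as liver products, fell in lung, and hepatocyte markers varied along with them. Serpina1b read 12.93, 12.80 and 13.19 on sham and 11.76, 12.62 and 11.69 after 4T1 injection on the control diet. In mice fed the high-fat diet it read 12.16, 12.50 and 12.78 against 11.36, 11.80 and 12.24. The control-diet groups did not overlap, with 4T1 replicate 2 close to the sham arrays, while the high-fat groups did overlap. Serpina1b fell by 0.95 on the control diet (SE 0.25, 1.93-fold, adjusted p = 0.00497) and by 0.68 on the high-fat diet (SE 0.25, 1.60-fold, adjusted p = 0.0306). The high-fat call was lost without 4T1 high-fat replicate 1 (-0.46, adjusted p = 0.137), without 4T1 high-fat replicate 2 (adjusted p = 0.065), without sham high-fat replicate 2 (0.07) or 3 (0.123), and with neqc (0.0585).

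Serpina1d read 11.76, 11.70 and 12.05 against 10.57, 11.49 and 10.49 on the control diet, and 11.16, 11.28 and 11.78 against 10.22, 10.72 and 10.96 on the high-fat diet. Neither pair overlapped, and Serpina1d fell by 0.99 and 0.77 on the log2 scale (SE 0.24 for both; adjusted p = 0.00384 and 0.0162); the second call was lost without 4T1 high-fat replicate 1 (adjusted p = 0.0767) or sham high-fat replicate 3 (0.08). Serpina6 read 8.44, 8.82 and 9.29 against 7.35, 8.29 and 7.62, and 8.02, 8.30 and 8.23 against 7.33, 7.44 and 7.95. It was detected on 6 of 6 sham but only 2 of 6 4T1 arrays, so most of the 4T1 level is background and the size is uncertain. Its groups did not overlap, and Serpina6 fell by 1.10 and 0.61 on the log2 scale (SE 0.23; adjusted p = 0.00138 and 0.0394), or -2.19 and -1.53 with neqc; the high-fat call was lost when any of 4 arrays was left out, at most with adjusted p = 0.13 without 4T1 high-fat replicate 1.

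Beside these 3 genes, the mean log2 signal of the hepatocyte markers, of which 9 of 12 were tested in lung and all 9 detected on every array, was 11.17, 11.02 and 11.46 on the sham and 9.91, 10.95 and 9.84 on the control-diet 4T1 arrays. The high-fat values were 10.46, 10.90 and 11.13 against 9.11, 9.82 and 10.53. The array highest in the markers within the 4T1 control group, replicate 2, was also the highest there in Serpina1b, Serpina1d and Serpina6. The summed level of the markers ranged from 16610 to 33900 on sham and from 5692 to 21530 on 4T1 arrays. The part of the markers in the serpin changes was not tested. Without 4T1 control replicate 2, 14 members were lower on the control diet, with Serpina10, Serpina11, Serpinf2 and Serpinh1 called in addition and Serpina3f lost.

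**Figure D4:**
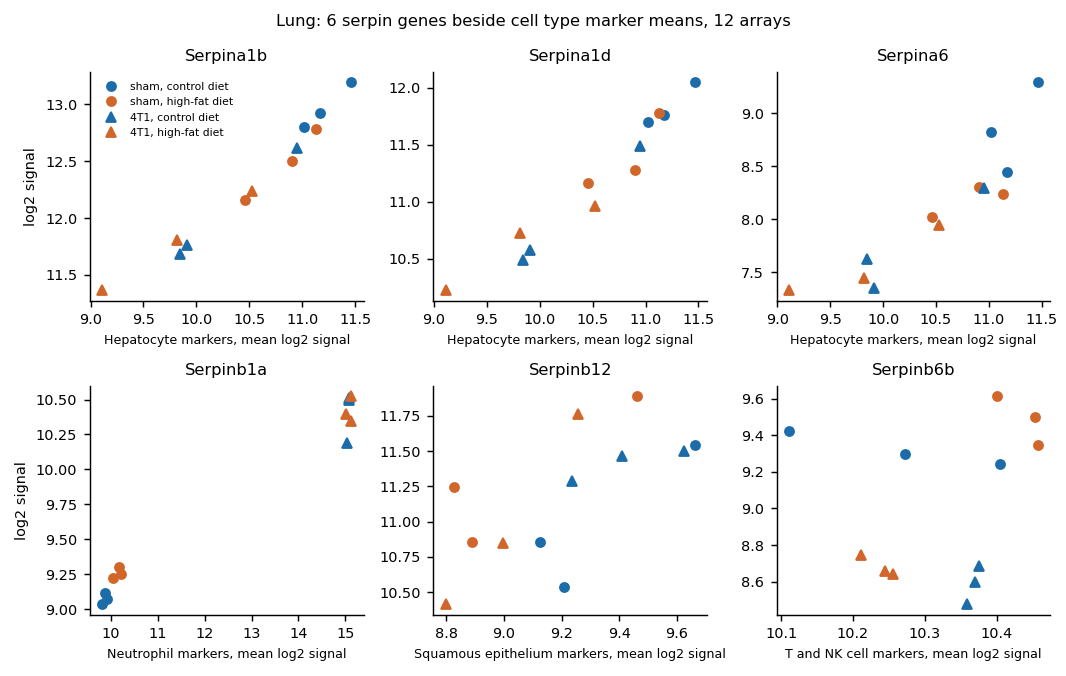
Log2 signal of 6 serpins (vertical axes) against the mean log2 signal of a cell type's markers (horizontal axes) on the 12 lung arrays; circles are sham, triangles 4T1, and colours the 2 diets. Serpina1b, Serpina1d and Serpina6 lie in the order of the hepatocyte mean or near it, and Serpinb1a falls into a sham cloud (9.03 to 9.30) and a 4T1 cloud (10.19 to 10.52).

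Other members known as plasma proteins fell in lung from lower signals. Serpina1a fell by 0.40 and 0.50 on the log2 scale (adjusted p = 0.0027 and 5.53e-04) and Serpina1c fell by 0.38 and 0.50 (adjusted p = 0.0188 and 0.00328); Serpina1a was detected on 6 of 6 sham but 1 of 6 4T1 arrays. On the high-fat diet Serpina1a was detected on no 4T1 array, so it was at least 1.18-fold lower. With neqc the changes of Serpina1a were -1.10 and -1.39 and those of Serpina1c -0.87 and -1.24. Serpina1c lost its control-diet call without sham control replicate 1 or 3 or without 4T1 control replicate 1 or 3 (adjusted p = 0.0641 to 0.0753). Serpind1 fell by 0.53 and 0.59 (adjusted p = 0.00243 and 0.00109), and Serpinf2, at -0.44 and -0.63, did not pass (adjusted p = 0.207 and 0.0761). Serpinf2 was called without 4T1 control replicate 2 on the control diet (-0.80, adjusted p = 0.0138) and without 4T1 high-fat replicate 3 on the high-fat diet (-0.94, adjusted p = 0.01).

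A second set of secreted serpins fell by less. Serping1, at 13.83 to 13.93 on sham arrays against 13.36 to 13.67 after 4T1, fell by 0.45 and 0.30 (adjusted p = 1.60e-04 and 0.00305), and a second probe read -0.46 and -0.32. Serpinf1 fell by 0.40 and 0.29 (adjusted p = 1.79e-04 and 0.00212), but its dim second probe read 0.14 and 0.27, and with the mean of both probes the high-fat change was -0.01 (adjusted p = 0.861). Serpina3f fell by 0.35 and 0.33 (adjusted p = 0.0322 and 0.0384). Sham control replicate 1 carried much of the first value, which was -0.16 without it (adjusted p = 0.15), and the second call was lost whichever of its 6 arrays was left out. The lung epithelial markers had means of 13.65 to 13.75 on sham arrays against 13.28 to 13.40 after 4T1, and their part in these changes was not tested.

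Among clade b serpins, Serpinb6b, which in mice inhibits the cytotoxic protease granzyme A, read 9.24, 9.30 and 9.42 on sham and 8.69, 8.48 and 8.6 after 4T1 injection on the control diet. Among high-fat mice the values were 9.35, 9.50 and 9.61 against 8.64, 8.75 and 8.66. The 6 sham arrays were above the 6 4T1 arrays, and Serpinb6b fell by 0.73 and 0.80 on the log2 scale (SE 0.08 for both; 1.66-fold and 1.75-fold; adjusted p = 2.46e-06 and 8.59e-07). The T and NK cell markers (6 of 8 tested) had means of 10.11 to 10.46 on sham arrays against 10.21 to 10.38 after 4T1, which overlap. The part of these or of any other cells in the fall of Serpinb6b was not tested. Serpinb6a fell by 0.31 and 0.17 (adjusted p = 1.61e-04 and 0.00917) by its bright probe, at 13.11 to 13.30 on sham arrays against 12.88 to 13.02 after 4T1, but a dim second probe read 0.79 and 0.85, and the mean of the probes turned the direction (0.24 and 0.34). Serpinb6c was called lower on the high-fat diet (adjusted p = 0.00478), but it was detected on all 6 sham and no 4T1 lung arrays, so it entered only through the groups where it is high, and its difference of -0.21 is not a measured fall.

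A set of clade b serpins that includes Serpinb3a, whose human relatives are known from squamous epithelium, was uneven in 3 of the 4 lung groups and even in the 4T1 group of the control diet (SD 0.01 to 0.12 there, 0.36 to 0.70 in the others). Serpinb3a, Serpinb3c, Serpinb11 and Serpinb12 passed in neither injection comparison, with changes from -0.65 to 0.44. Serpinb12 read 10.54, 11.54 and 10.85 on the sham arrays of the control diet alone. The squamous epithelial markers (4 of 5 tested) ranged from 8.80 to 9.66 over the 12 arrays and also differed within groups, and their part was not tested. Without 4T1 high-fat replicate 1, Serpinb3a, Serpinb3c and Serpinb11 were called lower on the high-fat diet (-1.05, -0.70 and -0.68), and without sham control replicate 2, Serpinb3c was called higher on the control diet (0.66, adjusted p = 0.0329).

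Neither Serpinh1 (-0.11 and -0.05), which stays in the endoplasmic reticulum of collagen-making cells, nor Serpina3n (0.08 and 0.31) passed in lung. The other tested members that passed on neither diet were Serpina10, Serpina3j, Serpina4-ps1, Serpina7, Serpinb2 (plasminogen activator inhibitor 2) and Serpini1 (neuroserpin), at -0.20 to 0.19. Serpina11 passed on the high-fat diet only, with an adjusted p of 0.0215 that rose to 0.0579 or more when any of 3 arrays was left out.

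No serpin was called between the diets in lung. In sham lungs 0 of 29 members passed (2.90% of all genes did), in 4T1 lungs 0 (0.0157%), and for the interaction 0 (0.282%). The smallest p in sham lungs belonged to Serpinb3c, at 8.11, 8.93 and 8.24 with control and 9.82, 9.14 and 8.92 with high-fat feeding. The groups overlapped slightly, and the difference of 0.87 ± 0.24 had an adjusted p of 0.073, which became 0.034 without sham control replicate 2 (1.12); its interaction was -0.88 (adjusted p = 0.294). Next came Serpina6 (-0.67, adjusted p = 0.156), at 8.44 to 9.29 against 8.02 to 8.30, and Serpinb6a (-0.12, adjusted p = 0.223), at 13.20 to 13.30 against 13.11 to 13.14.

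In 4T1 lungs Serpinb11 read 9.18, 9.20 and 9.18 with control and 9.17, 8.29 and 8.24 with high-fat feeding (-0.62, adjusted p = 0.351). Serpinb3a read 10.82, 10.70 and 10.81 against 10.81, 9.62 and 9.58 (-0.77, adjusted p = 0.362). In both genes 4T1 high-fat replicate 1 stood with the control-diet arrays and the other 2 arrays lay lower. Serpinb2 followed (-0.16, adjusted p = 0.426), at 7.56 to 7.70 against 7.43 to 7.56. For the interaction the next after Serpinb3c were Serpinb6a (0.14, adjusted p = 0.443) and Serpinb11 (-0.60, adjusted p = 0.49).

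Clade a and clade b differed in the organ where more of their tested members were higher. For this comparison all 24 arrays were normalized together, and 33 members tested in either tissue were compared between lung and liver of sham mice on the control diet. Of these 10 were higher in lung (30.3%, against 42.3% of 13236 genes) and 18 lower (54.5%, against 34.7%). Clade a had 1 higher and 12 lower of 17 (median difference -3.19), clade b 7 higher and 1 lower of 9 (median 1.33), and the rest 2 higher and 5 lower of 7 (median -3.48), beside a median of 0.06 over all genes. Of the 9 clade b members, 6 passed the detection filter in lung only, among them 5 of the 7 called higher there (Serpinb11, Serpinb12, Serpinb3a, Serpinb3c and Serpinb6b), so the filter itself largely set that direction. Serpina12 and Serpina1e of clade a and Serpinc1 of the rest, all counted as lower in lung, passed in liver only. Serpini1 of the rest, counted as higher, passed in lung only and was detected on 1 of the 3 sham control arrays there. The filter thus set part of those directions too. The difference of Serpini1 was 0.23, a call lost under median scaling (0.09, adjusted p = 0.264). With median scaling the median over all genes was 0.85, and the share of higher among all calls went from 54.9 to 86.7%.

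The secreted plasma serpins Serpinf2, Serpina6, Serpind1 and Serpina10 were lowest in lung relative to liver. Serpinf2 read 14.56, 14.76 and 14.70 in liver and 8.51, 8.49 and 8.73 in lung, a difference of -6.09 ± 0.19 on this scale (adjusted p = 1.40e-18). Serpina6 read 14.08, 14.47 and 14.53 against 8.16, 8.48 and 8.91 (-5.85, adjusted p = 1.34e-19). No lung array came near a liver array in either gene. Serpind1 read 13.44, 13.48 and 13.47 against 7.97, 7.92 and 8.21 (-5.43) and Serpina10 read 14.20, 14.29 and 14.34 against 8.86, 8.98 and 8.87 (-5.37). Serpinc1, the antithrombin gene, was detected on no sham control lung array and was at least 10.5-fold lower there (adjusted p = 1.15e-23).

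Higher in lung were Serpinb12, at 7.23, 7.12 and 7.24 in liver, where it was not detected, and 10.13, 11.17 and 10.45 in lung (at least 6.59-fold, adjusted p = 4.59e-11), and Serpinb3a, at 7.22, 7.24 and 7.22 against 9.86, 10.81 and 10.59 (at least 5.88-fold, adjusted p = 6.13e-11). In both genes the lowest lung array lay well above the highest liver array. The collagen chaperone Serpinh1 read 10.03, 10.28 and 10.19 in liver and 13.24, 13.28 and 13.31 in lung (3.11 ± 0.08, adjusted p = 1.87e-20), and Serpinb6a read 10.66, 10.85 and 10.81 against 13.09, 13.05 and 12.99 (2.27 ± 0.06). Both were tight in each organ, with no overlap. The difference of Serping1 was -0.77, a call lost under median scaling (-0.10).

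**Figure D5:**
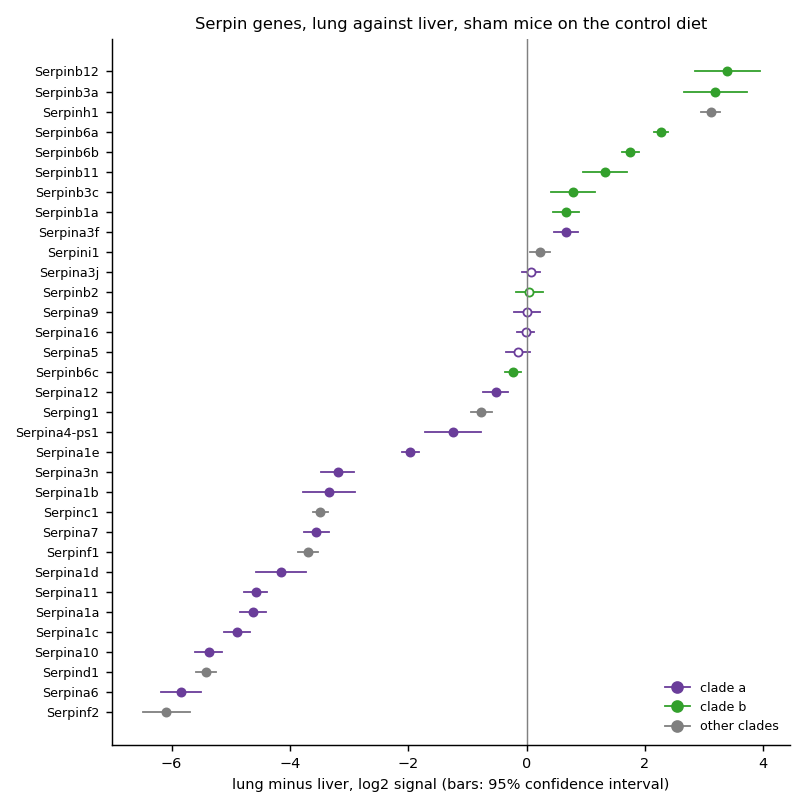
Lung minus liver difference in log2 signal for 33 serpins in sham mice on the control diet (3 against 3 arrays, normalized together; bars are 95% confidence intervals, filled points passed an adjusted p of 0.05). Most clade a genes lie left of 0, down to -5.85 for Serpina6, and most clade b genes right of it, up to 3.39 for Serpinb12.

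The response to 4T1 injection, averaged over the diets, differed between the organs for 20 of 33 members. Among them Serpina1b is at the top of the scale on all sham liver arrays, so its liver response was not measured. The lung response was the higher one for 4 (12.1%, against 28.3% of all genes) and the lower one for 16 (48.5%, against 29%). These counts include Serpina16, detected only on 4T1 lung arrays, and Serpina9, detected only on 4T1 liver arrays. Both passed the filter only through the groups where they are high, so their calls are no support for a direction. The lowest differences were those of Serpina4-ps1 (-1.96 ± 0.23), Serpina1c (-1.31 ± 0.11), Serpina1d (-1.16 ± 0.20) and Serpina1a (-1.04 ± 0.11), all higher in 4T1 livers, with adjusted p of 2.23e-07, 8.56e-10, 4.13e-05 and 2.54e-08. Of these, the 3 Serpina1 genes were lower in 4T1 lungs. Serpina4-ps1 changed there by 0.14 and 0.07 without passing and was detected on only 3 of 12 lung arrays. The liver signal of Serpina1d is near the top of the scale, so its place in this order is uncertain. The 4 with the higher lung response were Serpina16 (0.36), Serpinb1a (0.32), Serpina3j (0.20) and Serpina1e (0.18). Of these, Serpina16 and Serpina3j were detected on no liver array and Serpina1e on no lung array. Median scaling, which moved all genes by -0.71 and the share of higher among calls from 49.4 to 7.02%, gave -0.30 for Serpinb1a and -0.69 for Serpina1e, or 0.42 and 0.02 relative to that shift. With neqc Serpinb1a was at 0.13 (adjusted p = 0.532) and Serpina1e at 0.21 (adjusted p = 0.0672). The call of Serpina1e was also lost without liver 4T1 high-fat replicate 3, liver sham high-fat replicate 1, lung sham control replicate 3 or lung sham high-fat replicate 3 (adjusted p = 0.0542 to 0.0557). That of Serpina3j was lost without liver 4T1 control replicate 2, liver 4T1 high-fat replicate 3, liver sham control replicate 1, lung 4T1 control replicate 2 or lung 4T1 high-fat replicate 1 (0.0533 to 0.0647). Serpina6 fell in both organs, and the difference of its responses was 0.21 (95% interval -0.13 to 0.55, adjusted p = 0.276).

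Target proteases and partners of the serpins were read from 8 lists of other genes, whose counts are to be set against the shares of all genes called higher (21.0 and 21.7% in liver, 20.9 and 23.0% in lung) and lower (24.0 and 28.6%, 32.8 and 32.3%) on the control and the high-fat diet. Of 6 serine proteases listed for neutrophils, which Serpinb1a and alpha-1-antitrypsin inhibit in part, 5 were tested and all 5 rose in both organs on both diets. Prtn3 (proteinase 3) rose by 4.57 and 4.89 in liver and 3.46 and 3.75 in lung, while Ctsg (cathepsin G) rose by 4.34 and 4.74 in liver and 3.58 and 3.67 in lung. Elane (neutrophil elastase) rose by 3.12 and 3.69 in liver and 2.41 and 2.60 in lung. Prtn3, Ctsg and Elane are themselves expressed by neutrophils and move with the markers above. The list also holds Prss34 and Mcpt8, which are mast cell and basophil markers as well. The means of those markers were 7.39 to 7.55 on sham and 8.10 to 8.39 on 4T1 liver arrays, and 7.75 to 7.93 and 9.28 to 9.81 in lung. The part of any cell type in these rises was not tested. Of 6 granzymes, 1 was tested in liver and 2 in lung, and none passed.

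All 11 clotting and fibrinolysis proteases were tested in both organs. On the control diet 3 rose and 1 fell in liver, and with high-fat feeding 6 and 2 did, among them F11 (0.51 and 0.30), Proc (protein C; 0.33 and 0.45) and Plg (plasminogen; 0.33 and 0.29). The lung counts were 1 up and 9 down on the control diet and 1 and 4 on the high-fat diet, where 36.4% down is near the 32.3% of all genes, with F10 up by 0.87 and 0.92 and Proc at -0.60 and -0.63. Plg fell by 0.86 on the control diet, and at -0.71 on the high-fat diet it did not pass. Of 7 complement proteases tested, 4 and 5 rose and none fell in liver, led by Cfb (factor B; 0.83 and 1.26) and C1s2 (0.66 and 0.74), whereas in lung 3 and 4 fell and none rose, with Cfb at -0.50 and -0.75. Serping1, the inhibitor of C1s, moved in the direction of each organ's list (0.37 and 0.32 in liver, -0.45 and -0.30 in lung).

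Of 9 serpin receptors and cofactors tested in liver, 3 rose (5 with high-fat feeding) and 2 fell on each diet. Sort1 (sortilin) rose by 1.14 and 1.17 there, and Vldlr, a lipoprotein receptor that also clears serpin complexes, fell by 1.83 and 1.52 on the log2 scale. In lung 1 of 10 rose (Plaur, the urokinase receptor, 0.79 and 1.10) and 7 and 8 fell. Of 8 collagens, 7 were tested in liver, where 2 rose with control and 3 with high-fat feeding and none fell, led by Col4a2 (0.88 and 0.53) and Col4a1 (0.59 and 0.27) beside the chaperone Serpinh1. In lung 4 of 8 fell on each diet (50%, against 32.8 and 32.3% of all genes). In sham livers Col4a1 (0.58) and Col4a2 (0.52) were higher on the high-fat diet, while Serpinh1 changed by 0.18 (adjusted p = 0.148).

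Of 8 cathepsins tested, 4 rose in control-diet livers, and in high-fat livers 6 rose, Ctsb among them (0.53 and 0.63), and Ctsl fell by 0.38, while in lung 2 rose and 2 fell on each (Ctsd, an aspartic protease, 0.51 on both). Of the hormone partners, 1 of 4 rose and 1 fell in control-diet livers and 2 and 2 in high-fat livers, where Dio1, a thyroid hormone deiodinase, rose by 1.04 (0.34 on the control diet, adjusted p = 0.245). Ttr, another thyroxine carrier, rose by 0.44 and 0.43 in liver and fell by 1.24 and 1.63 in lung, and it is also 1 of the hepatocyte markers. Agt (angiotensinogen), a serpin by sequence that is listed under its own symbol, changed by 0.14 and 0.25 in liver, the second called (adjusted p = 0.0307), and fell by 0.27 and 0.26 in lung (adjusted p = 0.00703 and 0.00834).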

How the data were processed

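The samples were 24 single-channel Illumina bead arrays, 12 of liver and 12 of lung, in 8 groups of 3. Bead intensity and the detection p-value of each probe were deposited by the authors; the submitters' processing notes name GenomeStudio 2009.2. The authors also deposited log2 values; set against the intensities, these were a quantile normalization within each tissue (99.999724% of value pairs within 0.01). They were used as given.

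A probe needed a detection p under 0.05 on at least 3 of 12 arrays, and a gene took its brightest kept probe. Each tissue was fitted by limma 3.58.1 (R 4.3.3; lmFit, eBayes) over its 4 groups, with Benjamini-Hochberg adjustment over all genes and calls at 0.05. Lung was compared with liver after quantile normalization of all 24 arrays together, without background correction. The number of arrays limits the precision. Of 45281 probes, 34885 carried 1 symbol, which was updated by Entrez ID for 34807, by accession for 11 and kept for 67. The platform's probe annotation can be old. No 2 arrays held identical values.

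Alternatives were neqc (offset 16), median scaling, no detection filter, the mean of kept probes, the arrays of the compared groups alone, a replicate block and each array left out. Pairing of arrays by replicate number was not established: of 12 comparisons of groups, 0 had every same-numbered correlation over 0.1 (range -0.209 to 0.341). This cutoff cannot exclude pairing, since the correlation that paired arrays would show is not known. Between liver and lung these correlations ran from -0.016 to 0.087, and only the lowest was negative. The main fit of lung against liver treated the arrays as independent, and whether they are was not settled. Values on every array are given for the 4 largest called changes in each direction per injection and tissue comparison, and per diet comparison for the 3 largest called changes or, with fewer calls, the 3 smallest p; other members are given by change, counts or range, and up to 3 called genes per list are named. Members, lists and tests were chosen with earlier results of these data known. Promoter windows came from RefSeq GRCm38.p6 and were aligned with Biopython 1.88 (global, free end gaps). The fits were tested on simulated data.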

Additional observations from a re-analysis of the deposited data

Results flagged for a closer look

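The response to 4T1 injection, averaged over the diets, differed between lung and liver by a direct test (limma, adjusted p under 0.05) for 20 of 33 serpins. Values are lung minus liver on the log2 scale. Among the alpha-1-antitrypsin paralogs the differences were -1.04 for Serpina1a, -0.83 for Serpina1b, -1.31 for Serpina1c, -1.16 for Serpina1d and 0.18 for Serpina1e. The value of Serpina1b rests on a liver probe at the top of the scale on all 6 sham arrays, so its liver response could not be measured. The liver signal of Serpina1d is near the top, so the size of its difference is uncertain. For the other clade a genes the differences were -0.39 for Serpina10, -0.69 for Serpina11, 0.36 for Serpina16, -0.55 for Serpina3f, 0.20 for Serpina3j, -1.96 for Serpina4-ps1, -0.91 for Serpina7 and -0.38 for Serpina9. In clade b they were 0.32 for Serpinb1a, -0.44 for Serpinb6a and -0.85 for Serpinb6b. In the other clades they were -0.40 for Serpinc1, -0.54 for Serpinf2, -0.76 for Serping1 and -0.54 for Serpinh1. For Serpina1e, Serpina9 and Serpinc1, which were not tested in lung by the filter there, and for Serpina16, Serpina3j and Serpinb6b, which were not tested in liver, 1 of the 2 organs gave signals that were mostly below detection. The same holds for Serpina4-ps1 and Serpina7, each detected on 3 of 12 lung arrays, and for Serpina3f, detected on 5 of 12 liver arrays and on no sham array there. Serpina9 and Serpina16 passed the filter only through the 4T1 arrays where they are high.

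Within liver, the diet by injection interaction of Serpina7, the gene of thyroxine-binding globulin, was -0.93, the 1 interaction called among the members tested there.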

How the results depend on the processing

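Median scaling in place of quantile normalization, which moved all genes together, turned the sign of the liver changes of Serpina1b (0.34 on the control diet, 0.31 on the high-fat diet), Serpina1e (0.44, 0.51), Serpind1 (0.56, 0.68) and Serpinf1 (0.44, 0.53), and that of Serpina6 on the high-fat diet (0.15). It turned the lung minus liver responses of Serpina1e (-0.69), Serpina6 (-1.01), Serpinb1a (-0.30), Serpinb6c (-0.17) and Serpinf1 (-1.09), and the tissue difference of Serpinb6c (0.0086). In liver it left 0 members called lower on either diet and 20 called higher on the high-fat diet, 0 for the interaction, and 1 higher and 2 lower for diet in sham mice. The mean of a gene's probes turned Serpinb6a in lung (0.24, 0.34) and in the lung minus liver response (0.093), and gave 5 members higher in lung on the control diet.

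With neqc, 2 members had the higher lung response, 0 were called for the liver interaction and 0 lower for diet in 4T1 livers. With no detection filter the counts were 8 for the higher lung response and 6 and 8 higher in 4T1 lungs on the control and high-fat diets. With only the arrays of the compared groups, diet called 1 member higher in 4T1 livers, and 1 higher and 1 lower in sham livers. With the replicate number as a block, 1 member was lower on the high-fat diet in sham livers (Serpina6, adjusted p = 0.0276), 14 were higher in 4T1 livers on the control diet, where Serpina9 was lost (adjusted p = 0.0591), and the other counts of calls stayed within 1.5 times.

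When 1 array at a time was left out, the lung minus liver response was higher for 2 to 5 and lower for 16 to 17 members. In liver, 4T1 injection gave 14 to 15 higher and 4 lower on the control diet and 10 to 12 higher and 4 lower on the high-fat diet. Diet gave 2 to 3 higher and 0 to 2 lower in sham livers, 0 to 1 higher and 1 to 2 lower in 4T1 livers, and 1 to 2 lower for the interaction. In lung, injection gave 3 to 4 higher on both diets, 9 to 14 lower on the control diet and 8 to 14 lower on the high-fat diet, and diet 0 to 1 higher in sham mice. The tissue comparison gave 9 to 10 higher and 18 lower. The lowest high-fat lung count, 8, came without sham high-fat replicate 3. Why calls moved was not tested; the cause was not tested for the scaling and probe results either. With neqc the lung change of the dim Serpina5 was 1.65 and 1.40, against 0.61 and 0.51 without background correction.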
